A study of Mus musculus with 45 samples.

Results

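Myosin light chains are the small subunits that clasp the neck of the myosin heavy chain, and light chain kinases add a phosphate to the regulatory kind. The genes described here are 6 light chains (Myl1, Myl2, Myl3, Myl4, Myl7 and Myl9) and 3 kinases (Mylk, Mylk3 and Mylk4), 9 of the 23284 gene symbols listed for each library. They were chosen by symbol, with earlier results of these data known. Levels are on the log2(FPKM + 1) scale, where FPKM is the number of fragments of a gene divided by its transcript length and by the mapped reads of the library.

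Each myosin head rests on an essential and a regulatory light chain, and the heart makes different versions of both in its chambers. Myl7 (regulatory) and Myl4 (essential) are the atrial versions, Myl2 (regulatory) and Myl3 (essential) the ventricular ones, and the embryonic heart is known to use atrial versions more widely than the adult. Phosphate on the regulatory chain tunes the force and calcium response of the muscle. It is placed by calmodulin-dependent kinases and taken off by myosin phosphatase.

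The series holds 45 mouse heart samples, and its 6 RNA-seq libraries were analysed. Another 39 samples were not analysed here. The study set Gata4, a cardiac transcription factor, and histone marks beside gene expression in development and disease. The 5 groups were adult heart (2 libraries), heart of the mid-gestation embryo at E12.5 (1 library), E12.5 heart with the genotype label Gata4 KO (1 library, called the library labelled KO), a heart library labelled banding and 1 labelled sham. In banding a great vessel is narrowed by surgery, so that the heart pumps against a load, and sham is the mock operation. The labels do not give the vessel, the time after surgery, the age of the banding and sham animals, or the chambers taken. The labels name the alleles Gata4fbio, Rosa26BirA, cTNTcre and Gata4flox for every sample alike, without saying which library carried which. cTNTcre expresses Cre recombinase from a cardiac troponin T promoter, thus in heart muscle cells. RNA was pooled, and 2 µg went through poly(A) selection. Whether the adult libraries are separate animals, separate pools or repeats of 1 pool is not stated, so p-values measure only how these libraries scatter, and that scatter may be technical.

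Libraries held 12086929 to 21056784 mapped reads. Reads on listed genes made up 75.9% to 83.88% of mapped reads in the adult and E12.5 libraries but 58.05% in banding and 55.58% in sham. The ribosomal RNA precursor Rn45s took 652906 reads in banding and 552795 in sham, against 7560 to 35410 in the others. Of the genes measured, 8010 of 11582 lay lower in sham than in adult and 9496 of 12731 lower than at E12.5, and the part of the smaller share of reads on listed genes in this was not tested. Comparisons of sham with adult and E12.5 are given as deposited and rescaled, and ratios of genes within a library, which no scaling touches, stand beside them. Gata4 had 4290 reads at E12.5 and 4159 in the library labelled KO, an FPKM ratio of 1.15 (95% counting interval 1.10 to 1.20), so its level went against that label. The part of the gene that the floxed allele removes is not given in the labels. All directions drawn from that library rest on its label. None of the 6 cardiomyocyte markers (Tnnt2, Actn2, Ryr2, Ttn, Tnnc1 and Mybpc3) was at 0 in any library. In tissue RNA, fewer cells of a type and less RNA per cell cannot be told apart.

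The 250 bases before the start of transcription are shown for 5 members. Myl7 and Myl4 are shown as the atrial pair that separates the stages, Myl2 and Myl3 as their ventricular counterparts, and Mylk3 as the cardiac kinase. Sequences are from RefSeq on build GRCm38.p6, read 5′ to 3′ on the gene's own strand. They cover chr11:5898783-5899032 (minus strand) for Myl7, chr11:104550413-104550662 (plus) for Myl4, chr5:122092474-122092723 (plus) for the first of 2 listed Myl2 starts, chr9:110763428-110763677 (plus) for Myl3 and chr8:85381042-85381291 (minus) for the first of 2 listed Mylk3 starts. Capitals mark matches to a GATA hexamer, the kind of site that Gata4 and its relatives bind, and to the CArG box, the site of serum response factor. The GATA hexamers searched were AGATAA with its variant ending AGATAG, as well as TGATAA with its variant ending TGATAG.
Myl7 promoter: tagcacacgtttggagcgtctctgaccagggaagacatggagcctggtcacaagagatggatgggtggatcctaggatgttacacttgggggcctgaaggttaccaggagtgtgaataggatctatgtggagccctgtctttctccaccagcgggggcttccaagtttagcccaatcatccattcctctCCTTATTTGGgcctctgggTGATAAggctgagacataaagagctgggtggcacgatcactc
Myl4 promoter: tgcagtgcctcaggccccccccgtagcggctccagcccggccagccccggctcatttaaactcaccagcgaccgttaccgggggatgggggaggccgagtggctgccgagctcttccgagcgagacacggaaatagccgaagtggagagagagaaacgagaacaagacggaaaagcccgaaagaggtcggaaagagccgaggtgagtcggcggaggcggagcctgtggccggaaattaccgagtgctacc
Myl2 promoter: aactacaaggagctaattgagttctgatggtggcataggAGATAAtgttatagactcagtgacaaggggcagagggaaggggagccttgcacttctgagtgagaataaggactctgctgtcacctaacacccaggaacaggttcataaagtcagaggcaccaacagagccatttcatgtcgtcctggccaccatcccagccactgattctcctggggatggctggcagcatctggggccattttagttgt
Myl3 promoter: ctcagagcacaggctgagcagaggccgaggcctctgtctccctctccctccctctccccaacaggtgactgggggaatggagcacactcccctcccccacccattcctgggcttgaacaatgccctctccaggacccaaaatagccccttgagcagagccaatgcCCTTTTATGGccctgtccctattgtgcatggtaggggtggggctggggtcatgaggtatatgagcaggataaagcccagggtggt
Mylk3 promoter: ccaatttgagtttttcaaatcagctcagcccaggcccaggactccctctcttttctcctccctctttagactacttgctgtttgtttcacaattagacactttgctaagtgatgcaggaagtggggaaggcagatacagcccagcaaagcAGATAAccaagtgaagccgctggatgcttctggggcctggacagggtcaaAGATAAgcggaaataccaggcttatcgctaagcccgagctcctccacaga

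Both strands were searched in 11 windows, which covered all 9 members, and no matches overlapped. The Myl7 window held TGATAA with its first base 42 bases before the start and a CArG box at 61. A CArG box lay at 85 in Myl3 and at 161 in Myl9, while a GATA hexamer lay at 211 in the first Myl2 window and at 170 in Myl1. The first Mylk3 window held AGATAA at 100 and at 50, and the second held AGATAG at 57. A MEF2 box, the site of another muscle factor family, lay at 103 in Mylk4. The Myl4 and Mylk windows and the second Myl2 window held none of these letters. Among 32851 mouse promoter windows of the same length, 26.5% held at least 1 GATA hexamer and 6.4% more than 1, while 1.47% held a CArG box and 2.92% a MEF2 box. A match describes the letters and is not a measured binding site.

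Of the 9 genes, the ventricular chain Myl2 was highest in every library. The ventricular chain Myl3 came second in adult, banding and sham. In the embryonic libraries an atrial chain lay above Myl3, namely Myl4 at E12.5 (11.71) and Myl7 in the library labelled KO (11.79). Myl2, the regulatory chain of the ventricle, stood at 14.18 and 14.16 in the adult libraries, 14.60 at E12.5, 14.01 in the library labelled KO, 12.81 in banding and 12.68 in sham. It was the most abundant of all listed genes in both adult libraries and at E12.5, and ranked 3, 3 and 4 in the library labelled KO, banding and sham. Myl3, its essential partner, stood at 11.90 and 11.94 in adult, 11.69 at E12.5, 11.44 in the library labelled KO, 10.73 in banding and 10.78 in sham. As deposited, banding and sham lay below the other 4 libraries for both chains. After each of the 3 rescalings Myl3 lay higher in sham than at E12.5, by 0.12 to 0.30. Myl2 exceeded Myl3 within every library, by an FPKM ratio of 7.54 (7.48 to 7.61) at E12.5, 5.95 (5.89 to 6.01) in the library labelled KO, 4.86 and 4.67 in adult, 4.25 in banding and 3.74 (3.67 to 3.80) in sham.

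The atrial chains separated the embryonic libraries from all the others. Myl4, the atrial essential chain, stood at 11.71 at E12.5 and 11.19 in the library labelled KO, 6.72 and 6.09 in adult, 1.94 in banding and 1.61 in sham. Those levels came from 62413 and 36689 reads in the embryonic libraries, 1162 and 731 in adult, 35 in banding and 22 in sham. Both embryonic levels thus lay above both adult levels, and both adult levels lay above banding and sham. How many of all genes separate in this way was not counted. Myl7, the atrial regulatory chain, stood at 11.30 at E12.5 and 11.79 in the library labelled KO, 4.65 and 3.27 in adult, 0.79 in banding and 0.64 in sham. Its levels rested on 31259, 37091, 179, 63, 6 and 4 reads in that order, so Myl7 was close to the limit of counting after surgery. The adult libraries also differed from each other most for these chains among the 9 genes, by 1.38 for Myl7 and 0.63 for Myl4. Between the adult libraries, 31 genes (0.285%) differed by at least 1 on the log2 scale with at least 5 FPKM in the higher library, and Myl7 was one of them. Of 10 atrial markers other than light chains, 6 were higher in adult replicate 1 and 4 in adult replicate 2, with a median difference of 0.15. Among the 6, Sln stood at 3.18 in replicate 1 (53 reads) and 1.67 in replicate 2 (14 reads). All 6 ventricular markers were higher in replicate 1, also with a median of 0.15. The part of either set of markers in the difference between the adult libraries was not tested.

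**Figure D1:**
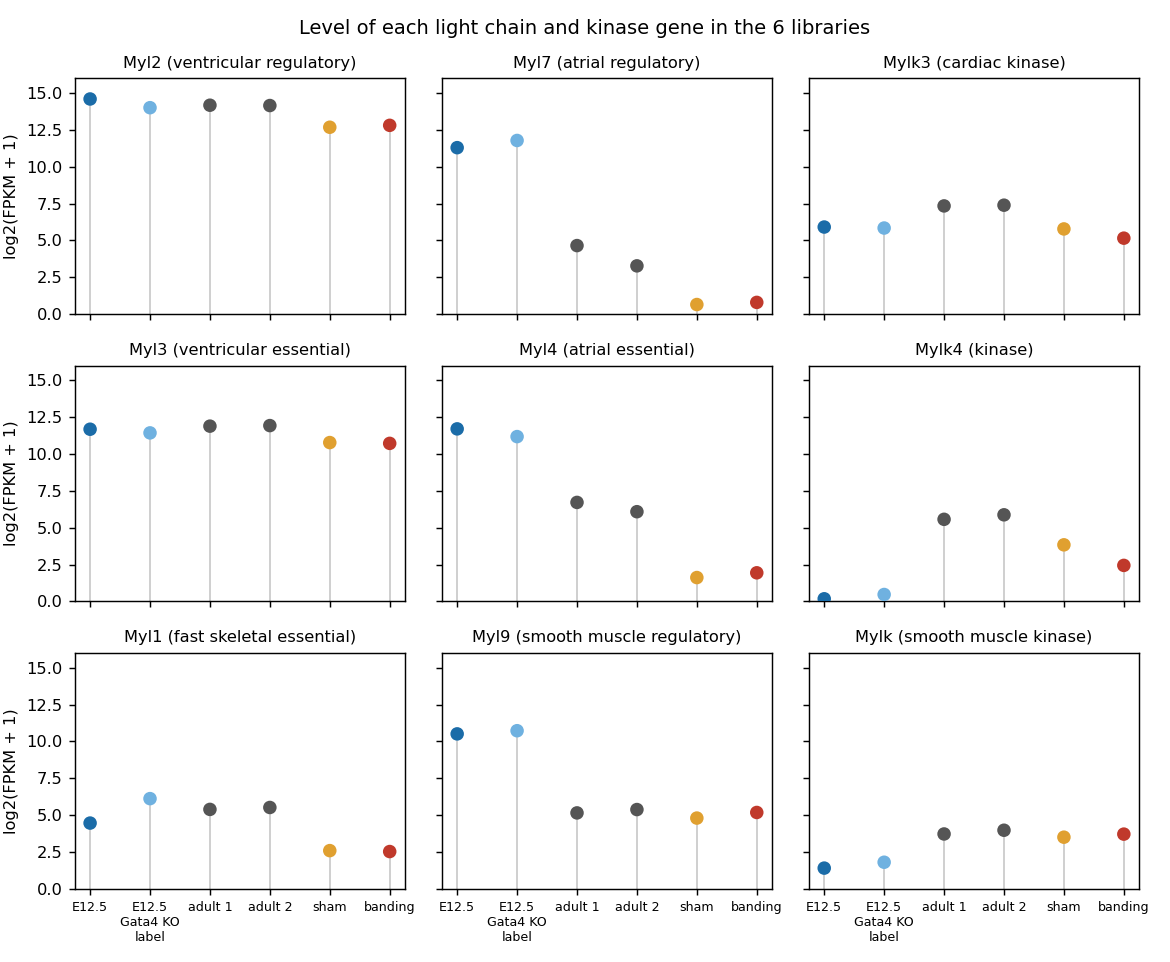
Level of each of the 9 genes, as log2(FPKM + 1), in each of the 6 libraries (1 point per library, with a line from 0). Myl4, Myl7 and Myl9 are high in both E12.5 libraries, Mylk4 is near 0 there, and Myl2 and Myl3 are above 10 in all 6.

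Myl9 and Myl1 are light chains best known from other kinds of muscle. Myl9, the regulatory chain of smooth muscle and non-muscle cells, stood at 10.51 at E12.5 and 10.73 in the library labelled KO, 5.15 and 5.37 in adult, 5.17 in banding and 4.79 in sham. Both embryonic libraries lay far above the other 4, which overlapped. Reads of Myl9 and its near-identical relatives Myl12a and Myl12b may have been split by the counting, so its level is uncertain. Myl1, the essential chain of fast skeletal muscle, stood at 5.38 and 5.51 in adult, 4.45 at E12.5, 6.12 in the library labelled KO, 2.52 in banding and 2.58 in sham. Its partner in fast muscle, Mylpf, had 6 and 13 reads in adult, 237 at E12.5, 159 in the library labelled KO, 8 in banding and 6 in sham. The Myl1 to Mylpf FPKM ratio was thus 64.7 (29.5 to 177) and 32.1 (18.6 to 60.6) in adult but 1.404 (1.20 to 1.65) at E12.5. Of 10 fast skeletal markers, 3 reached 1 FPKM in an adult or the E12.5 library, and their summed level was 2.80 and 2.31 FPKM in adult against 59.6 at E12.5, where Tnni2, fast troponin I, led.

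The kinases divided differently. Mylk3, the cardiac kinase whose substrate is Myl2, stood at 7.34 and 7.39 in adult, 5.91 at E12.5, 5.84 in the library labelled KO, 5.15 in banding and 5.78 in sham. Mylk4, a related kinase of striated muscle, stood at 5.57 and 5.88 in adult, 0.17 at E12.5, 0.46 in the library labelled KO, 2.44 in banding and 3.84 in sham. Mylk, the kinase of smooth muscle and non-muscle cells, stood at 3.71 and 3.97 in adult, 1.39 at E12.5, 1.79 in the library labelled KO, 3.70 in banding and 3.50 in sham. Both embryonic libraries were lowest for Mylk and Mylk4, whereas banding was lowest for Mylk3 as deposited. The place of banding depended on scaling. The 3 rescalings multiplied banding by 1.39 to 1.51 and both embryonic libraries by 0.68 to 0.77. Mylk3 then lay higher in banding than in either embryonic library. The Mylk gene makes transcripts of several lengths, and 1 value per gene does not separate them.

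In the order of the adult means per length (SD, n = 2), Myl2 at 14.17 ± 0.01 and Myl3 at 11.92 ± 0.03 came first, then Mylk3 at 7.37 ± 0.04 and Myl4 at 6.40 ± 0.45. Mylk4 at 5.72 ± 0.22, Myl1 at 5.45 ± 0.09 and Myl9 at 5.26 ± 0.16 lay close together, with gaps near the size of their SDs. Myl7 at 3.96 ± 0.97 and Mylk at 3.84 ± 0.18 overlapped and could not be ordered. In E12.5 the order was Myl2, Myl4, Myl3, Myl7, Myl9, Mylk3, Myl1, Mylk and Mylk4. There Myl4 and Myl3 were almost level, with an FPKM ratio of 1.02 (counting interval 1.01 to 1.03).

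The first comparison asked how the light chain system of the adult heart differs from that of the embryo. The atrial chains Myl7 and Myl4 and the smooth muscle chain Myl9 fell, all 3 kinases rose together with Myl1, and the ventricular chains did not pass the test. The test was limma across 12658 genes with a Benjamini-Hochberg adjusted p threshold of 0.05. It called 4 of the 9 genes higher and 3 lower in adult, where 23.4% of all genes tested were called higher and 48.4% lower (71.8% in either direction). Most genes thus passed this test, and the counts are to be read against that background. By the rule of size used above, 3 were higher and 3 lower, against 11.9% and 27% of genes.

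Myl7 fell by 7.34 (SE 0.75), a limma adjusted p = 0.0109. Against single adult libraries the FPKM was 104.7-fold lower (counting interval 90.4 to 121.9) and 291.2-fold lower (227.5 to 379), so the 2 adult libraries gave different sizes for the same direction. Myl4 fell by 5.31 (SE 0.35), a limma adjusted p = 0.00631, or 32.2-fold and 50.1-fold against each adult library. Myl9 fell by 5.25 (SE 0.14), a limma adjusted p = 0.00398. Its fall was the most even of the 3 between the adult libraries, at 42.5-fold (38.8 to 46.6) and 36.1-fold (33.2 to 39.4).

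Mylk4 rose by 5.55 (SE 0.19), a limma adjusted p = 0.00398, from 15 reads at E12.5 to 3310 and 4024 in adult. Mylk rose by 2.45 (SE 0.17), with a limma adjusted p = 0.00682. The sizes for both genes depended on the pseudocount, at 7.84 and 3.47 for Mylk4 and 2.96 and 1.47 for Mylk with 0.1 and 5 FPKM added. Mylk3 rose by 1.46 (SE 0.07), with a limma adjusted p = 0.00454. Every kinase was thus higher in both adult libraries than at E12.5, over a range from 2.73-fold for Mylk3 to 457-fold for Mylk4 against single adult libraries. Myl1 rose by 0.99 (SE 0.10), with a limma adjusted p = 0.0104.

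Myl2 differed by -0.43 (SE 0.18; limma adjusted p = 0.139) and Myl3 by 0.23 (SE 0.11; limma adjusted p = 0.168). The median over all genes tested was -0.51, and under median-of-ratios scaling, which moves it to -0.05, Myl2 stood at 0.08 and Myl3 at 0.74. There limma gave Myl3 an adjusted p = 0.0219, and Myl2 one of 0.771. The direction of Myl2 thus depended on how the libraries were scaled, and Myl3 passed under each of 3 rescalings. Over all genes limma called 2965 higher and 6123 lower as deposited, and 4131 and 4409 after median-of-ratios scaling. The fit gave the single E12.5 library the same variance as the adult pair.

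Ratios within a library do not depend on that scaling. Among the regulatory chains of the cardiac chambers, Myl7 made up 9.18% of Myl7 plus Myl2 FPKM at E12.5 (binomial interval 9.08% to 9.27%) and 17.6% in the library labelled KO (17.4% to 17.8%). In adult it made up 0.129% (0.111% to 0.150%) and 0.0472% (0.0363% to 0.0604%). In banding it was 0.0101% (0.00370% to 0.0219%) and in sham 0.00852% (0.00232% to 0.0218%), and these intervals overlapped almost entirely. For the essential chains, Myl4 made up 50.4% of Myl4 plus Myl3 at E12.5, 45.6% in the library labelled KO, 2.66% and 1.68% in adult, 0.167% in banding and 0.117% in sham.

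The atrial share was therefore far larger for the essential than for the regulatory chain in all 6 libraries. On the log2 scale Myl4 over Myl3 stood at 0.02 at E12.5, near parity, where Myl7 over Myl2 stood at -3.31. In adult the same ratios were -5.19 and -5.87 for the essential pair and -9.59 and -11.05 for the regulatory pair. Between the atrial genes themselves, the Myl7 to Myl4 FPKM ratio was 0.750 (0.739 to 0.760) at E12.5 and 1.51 (1.49 to 1.53) in the library labelled KO. It was 0.231 and 0.129 in adult, 0.257 in banding and 0.272 in sham.

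**Figure D2:**
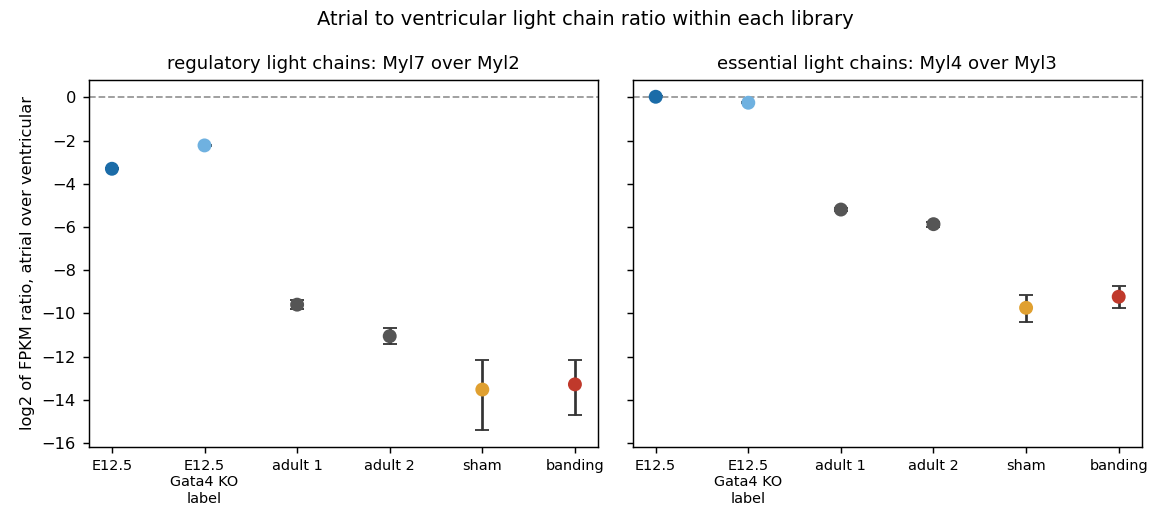
The log2 ratio of atrial to ventricular FPKM within each library, for the regulatory chains (left) and the essential chains (right), with 95% counting intervals as bars (hidden by the point where narrow) and a dashed line at equal levels. The essential ratio is 0.02 at E12.5, and both ratios are lowest in banding and sham.

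Markers of the atrium other than light chains did not move as 1 block. Of 10 such markers, limma called 3 higher and 5 lower in adult than at E12.5. These counts are near the shares over all genes tested, 23.4% higher and 48.4% lower. Nppa, the atrial natriuretic peptide, fell by 4.78 (SE 0.14), Bmp10 by 5.75 (SE 0.17) and Gja5, a gap junction protein, by 4.81 (SE 0.20), with limma adjusted p of 0.00431 or less, whereas the potassium channel Kcna5 rose by 2.73 (SE 0.30; limma adjusted p = 0.0121). The summed level of the 10 was 265 and 234 FPKM in adult, 5493 at E12.5, 7205 in the library labelled KO, 5400 in banding and 333 in sham. Nppa alone made up 76.1% to 99.6% of each of these sums. The other 9 summed to 58.5 and 56.0 FPKM in adult, 192 at E12.5, 243 in the library labelled KO, 22.2 in banding and 23.1 in sham. Sln, an atrial calcium pump regulator, was at 0 in both banding and sham, and Bmp10 was at 0 in banding. Of 6 ventricular markers, 1 rose and 4 fell. Their part in the light chain values was not tested.

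Smooth muscle markers were mixed in the same way beside Myl9 and Mylk. Of 7, limma called 3 higher and 3 lower in adult, where 23.4% of all genes tested were higher and 48.4% lower. Myh11, the smooth muscle myosin heavy chain, rose by 5.51 (SE 0.17), as Mylk did, whereas Cnn1, an actin-binding protein of smooth muscle, fell by 4.31 (SE 0.13) and Acta2, smooth muscle actin, by 1.53 (SE 0.06), as Myl9 did. Each of these 3 had a limma adjusted p of 0.00418 or less. Lmod1, another of the 7, rose by 2.405 (SE 0.25; limma adjusted p = 0.0113). Myh11 rested on only 8 reads at E12.5, against 3591 and 4243 in adult. The summed level of the 7 was 256 and 276 FPKM in adult, 561 at E12.5, 1129 in the library labelled KO and 133 in both banding and sham. The Myl9 to Mylk FPKM ratio was 896 (794 to 1014) at E12.5 and 687 (618 to 767) in the library labelled KO, and between 2.60 and 2.92 in the other 4 libraries.

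The makeup of the kinases changed with stage. Mylk3 made up 97.1% of the summed kinase FPKM at E12.5 and 95.2% in the library labelled KO. It made up 73.3% and 69.7% in adult, 67.7% in banding and 69.6% in sham. Mylk4 took 0.208% and 0.641% in the embryonic libraries, 21.2% and 24.1% in adult, 8.69% in banding and 17.2% in sham. Mylk took 2.69% and 4.18% in the embryonic libraries, 5.52% and 6.12% in adult, 13.3% in sham and 23.6% in banding. The summed level as deposited was 220 and 239 FPKM in adult and between 51.0 and 77.4 in the other 4. Each of the 3 rescalings raised banding and sham and lowered both embryonic libraries. The order of those 4 sums thus depended on scaling, while the shares did not. Set against its substrate, Mylk3 was scarcest at E12.5, where Myl2 exceeded it by an FPKM ratio of 422 (409 to 436), against 294 in the library labelled KO, 209 in banding, 122 in sham, and 115 and 110 in adult.

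**Figure D3:**
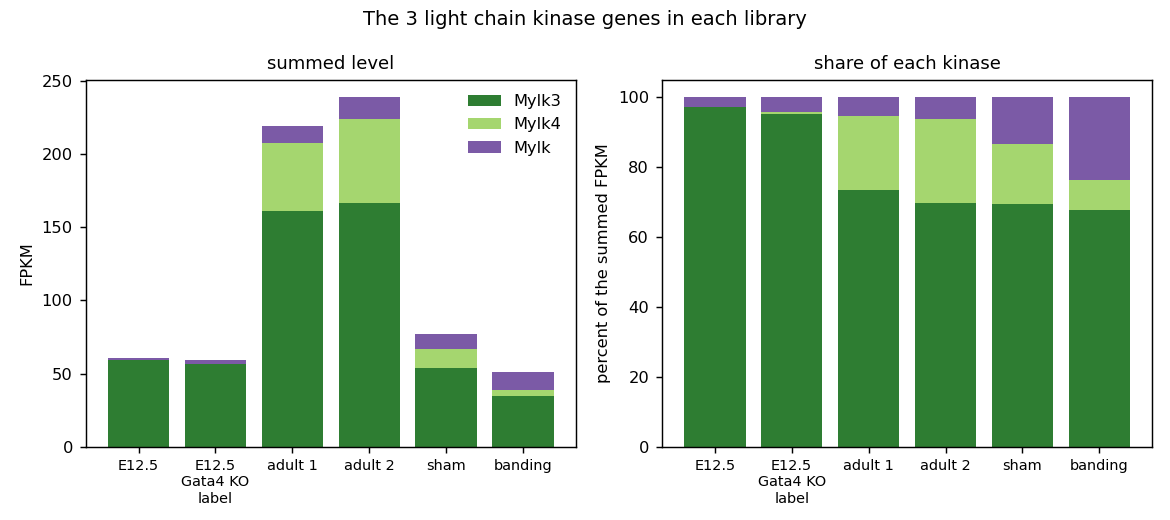
Summed FPKM of Mylk3, Mylk4 and Mylk (left) and the share of each in that sum in percent (right), stacked for each of the 6 libraries. Mylk3 holds 97.1% at E12.5, and Mylk holds 23.6% in banding.

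Genes around these members were taken from a list of other light chains and a list of phosphatase and control genes. Of 7 other light chain and kinase genes, 5 were tested by limma between adult and E12.5. Of these 1 rose and 3 fell (median difference -1.25, against -0.51 over all genes). The shares over all genes tested were 23.4% higher and 48.4% lower. Mylpf fell by 3.01 (SE 0.32) and Myl12a, a non-muscle regulatory chain, by 2.22 (SE 0.08), while its near-copy Myl12b rose by 0.72 (SE 0.06), each with a limma adjusted p of 0.0116 or less. Myl6, the non-muscle essential chain, differed by -0.37 (limma adjusted p = 0.0634), and by 0.14 under median-of-ratios scaling. Myl10 and Mylk2, the skeletal muscle kinase, did not reach 1 FPKM.

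Of 15 phosphatase and control genes, 8 rose and 3 fell by limma in adult, with a median difference of 0.59. Among all genes tested 23.4% were called higher and 48.4% lower, with a median of -0.51. Ppp1r12b, a targeting subunit of myosin phosphatase in striated muscle, rose by 2.52 (SE 0.07). Rock2 and Rock1, kinases that inhibit the phosphatase, rose by 2.39 (SE 0.07) and 2.09 (SE 0.11). Ppp1cb, its catalytic subunit, rose by 1.12 (SE 0.06). The calmodulin genes Calm2 and Calm3 fell by 0.63 (SE 0.06) and 1.69 (SE 0.07), and Dapk3, a kinase that also acts on light chains, fell by 1.37 (SE 0.08). The highest limma adjusted p among these was 0.0101. Under upper-quartile and median-of-ratios scaling 10 of the 15 rose and 2 fell, and Calm2 no longer passed (median-of-ratios difference of -0.12, limma adjusted p = 0.254), while Calm3 and Dapk3 did.

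**Figure D4:**
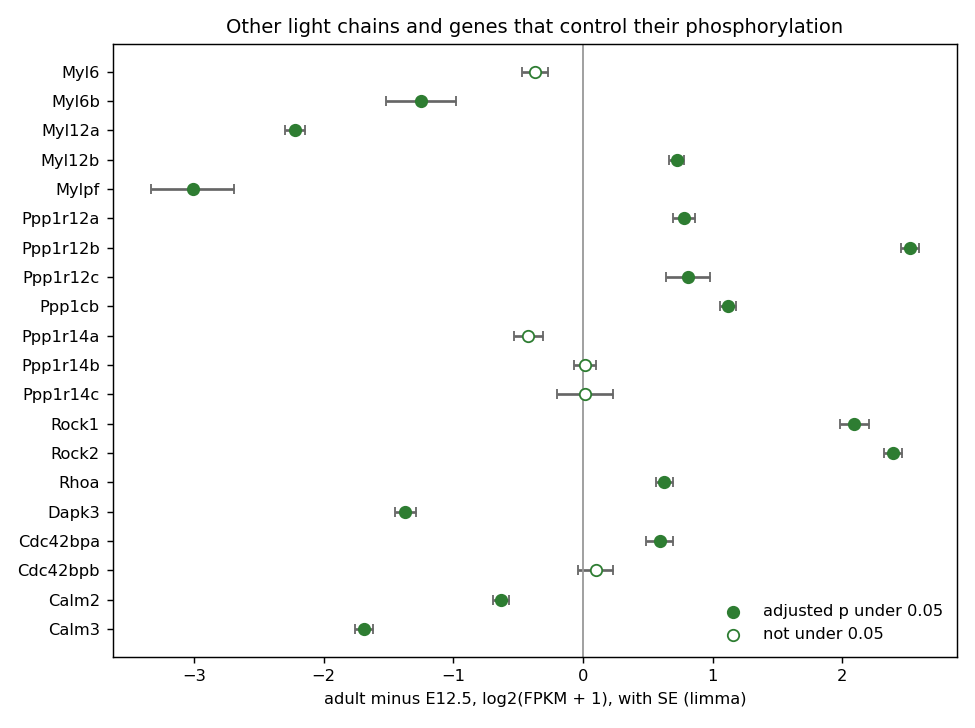
Adult minus E12.5 difference in log2(FPKM + 1) with its SE (bars) from limma for the other light chains and the genes that control light chain phosphorylation, filled where the adjusted p was under 0.05. Ppp1r12b, Rock1 and Rock2 lie above 2, and Mylpf, Myl12a and Calm3 lie below -1.

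Myosin heavy chains also differed between adult and E12.5. Of 6 listed, which include Myh11 of smooth muscle, 4 rose and 2 fell by limma. Over all genes tested, 23.4% were called higher and 48.4% lower. Myh6, the heavy chain of the adult mouse heart, rose by 5.52 (SE 0.10), and Myh7, the slow heavy chain of the fetal ventricle, fell by 2.20 (SE 0.07), with a limma adjusted p = 0.00398 for each.

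The comparison of banding with sham asks what pressure load does to these genes. It has 1 library in each group, so no difference has a p-value or a check between replicates. By the rule of size, 0 of the 8 measured members were higher and 1, Mylk4, was lower in banding. Over all 11011 genes measured, 1.16% were higher and 0.463% lower. Mylk4 had 350 reads in banding and 906 in sham, a difference of -1.40 on the log2 scale. Its FPKM was 3.002-fold lower in banding (counting interval 2.65 to 3.41). With a pseudocount of 5 FPKM the difference was -0.96, short of the rule. The cardiac kinase Mylk3 had 1485 reads against 1998, an FPKM ratio of 0.641 (0.599 to 0.686). Mylk, in contrast, had a ratio of 1.17 (1.08 to 1.27), and within the library the Mylk3 to Mylk ratio was 2.87 (2.66 to 3.09) in banding and 5.24 (4.85 to 5.66) in sham.

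Among the light chains, Myl2 had a banding to sham FPKM ratio of 1.09 (1.08 to 1.11) and Myl3 one of 0.963 (0.944 to 0.982), and the sign of Myl2 turned to -0.02 on the log2 scale when the libraries were rescaled without the 50 highest genes. Myl9 had a ratio of 1.31 (1.15 to 1.51). Myl4 at 1.37 (0.783 to 2.46), Myl7 at 1.29 (0.307 to 6.23) and Myl1 at 0.949 (0.659 to 1.37) had counting intervals that include 1. The level of Nppa was 12.39 in banding and 8.28 in sham, while the atrial light chains held only 35 and 6 reads in banding. Nppa was the 1 atrial marker of 8 measured that passed the rule of size, and the 8 had a median difference of 0.03, with 4 above and 4 below 0. Fibroblast markers moved with this comparison, as 4 of 5 were higher in banding by the rule of size and their summed level was 678 FPKM against 259 in sham. Their part in the kinase values was not tested. None of the 15 phosphatase and control genes and none of the 4 measured other light chains passed the rule of size. Over all genes the rule counted 128 higher and 51 lower as deposited, and 114 and 118 without the 50 highest genes.

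**Figure D5:**
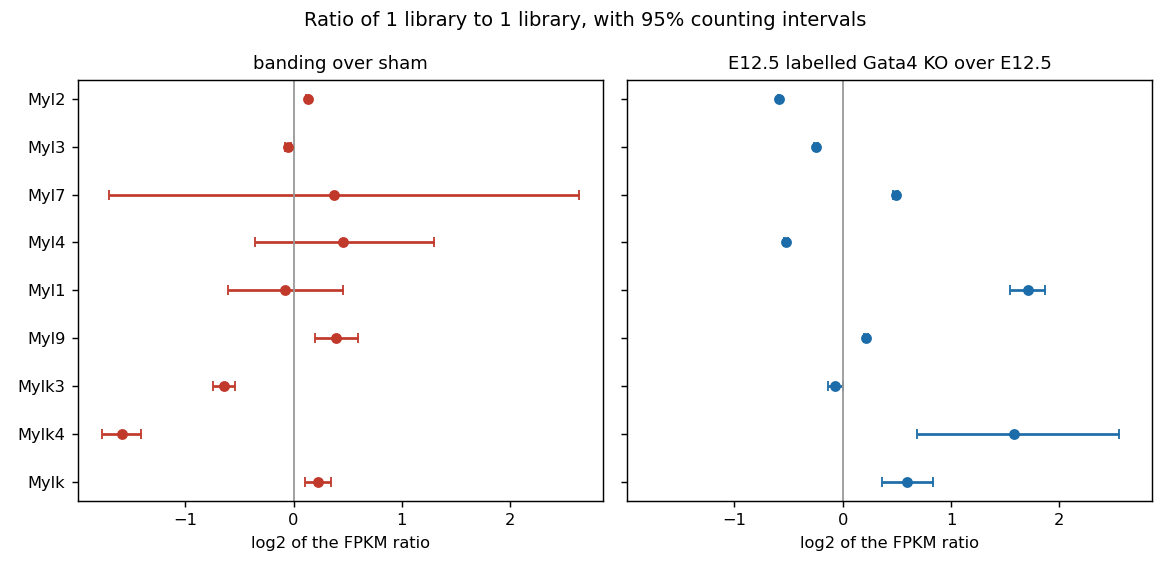
The log2 FPKM ratio of banding to sham (left) and of the E12.5 library labelled KO to E12.5 (right) for the 9 genes, with 95% counting intervals as bars and 1 library on each side of every ratio. Mylk4 lies lowest on the left, and Myl1 and Mylk4 lie highest on the right.

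Between the E12.5 libraries, 1 of 8 measured members was higher in the library labelled KO by the rule of size and 0 were lower, where 0.929% of 12062 genes were higher and 0.506% lower. The 1 gene was Myl1, with 1209 reads against 438, a difference of 1.66 and an FPKM ratio of 3.26 (2.92 to 3.65). Among cardiac chains, Myl7 was higher with a ratio of 1.403 (1.38 to 1.43). Myl2 was lower at 0.664 (0.660 to 0.668), Myl4 at 0.695 (0.686 to 0.704) and Myl3 at 0.842 (0.832 to 0.852). The 2 atrial chains thus differed in opposite directions, and so did the regulatory chains Myl7 and Myl2. Of these 4 differences none reached 1 on the log2 scale.

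Mylk had an FPKM ratio of 1.51 (1.29 to 1.78) and Myl9 one of 1.16 (1.14 to 1.18). Mylk4 had 38 reads against 15 and stayed below 1 FPKM in both. Mylk3 was close to level, at 0.954 (0.909 to 1.00), and its sign turned when rescaled without the 50 highest genes. Cell type markers differed between the same libraries. The 6 cardiomyocyte markers summed to 4917 FPKM in the library labelled KO and 8053 at E12.5, and 5 of the 6 were lower there. Red cell markers summed to 64665 FPKM against 21253, fibroblast markers to 234 against 100.2 and smooth muscle markers to 1129 against 561. Acta2 made up 80.4% and 67.0% of those smooth muscle sums, whereas Cnn1 stood at 6.71 against 6.75. Fast skeletal markers, unlike Myl1, had a lower sum in the library labelled KO, at 21.1 FPKM against 59.6. Of 3 measured, 1 lay higher and 2 lower, and Tnni2 was lower by the rule of size at -1.87. Of 6 ventricular markers 5 were lower in the library labelled KO, 2 of them by the rule of size, with a median difference of -0.58. Of 8 measured atrial markers 6 were higher, none by the rule of size, with a median of 0.41. Their part in the light chain values was not tested. Over all genes the rule counted 112 higher and 61 lower as deposited, and 121 and 40 without the 50 highest genes.

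Sham against adult asks how the operated control compares with the unoperated adult heart, across libraries whose share of reads on listed genes differed. By the rule of size 7 members were lower in sham and 0 higher, where 22.2% of 11582 genes were lower and 3.01% higher. The differences ran from -1.13 for Myl3 to -4.79 for Myl4, with -3.32 for Myl7 and -2.87 for Myl1. The median over all genes was -0.44 as deposited and -0.01 under median-of-ratios scaling, which left 5 members lower, namely Myl4 at -4.43, Myl7 at -3.12, Myl1 at -2.43, Mylk4 at -1.40 and Mylk3 at -1.08. Myl2 at -0.97 and Myl3 at -0.62 no longer reached 1. Upper-quartile scaling and rescaling without the 50 highest genes each left 4 lower, since Mylk3 then stood at -0.88 and -0.84. Myl9 and Mylk differed by -0.47 and -0.35 as deposited and were positive in all 3 rescalings, from 0.03 to 0.28 for Myl9 and from 0.13 to 0.36 for Mylk. Over all genes the rule counted 349 higher and 2571 lower as deposited, and 960 and 1506 under median-of-ratios scaling.

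The within-library ratios gave the same separation of sham from adult for the atrial chains. Myl4 over Myl3 stood at -9.74 in sham, below both adult values. Kcnj3, an atrial potassium channel gene, differed by -2.90 and Sln by -2.43 between sham and adult. Of 9 measured atrial markers these 2 were lower by the rule of size and none higher, where 22.2% of all genes were lower. Among the 9, 7 lay below 0 and 2 above, with a median difference of -0.49. Ventricular markers also lay lower in sham, all 6 below 0 and 2 of them by the rule of size, with a median of -0.96. Whether the libraries held unequal amounts of atrial tissue was not tested.

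Against E12.5, sham had 2 members higher (Mylk by 2.10 and Mylk4 by 3.67) and 5 lower by the rule of size, where 6.84% of 12731 genes were higher and 39.1% lower. Myl7 differed by -10.66, Myl4 by -10.10 and Myl9 by -5.72. Myl1 at -1.87 and Myl2 at -1.92 did not reach -1 in any of the 3 rescalings, which left 3 lower. Myl3 differed by -0.91 and Mylk3 by -0.13 as deposited, and both were positive after each rescaling. Under upper-quartile scaling Mylk3 stood at 1.06 and passed the rule, which made 3 members higher. Adult and sham, compared with the same E12.5 library, thus each had lower Myl7, Myl4 and Myl9 and higher Mylk and Mylk4. Over all genes the rule counted 871 higher and 4976 lower as deposited, and 1985 and 2596 under median-of-ratios scaling.

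The genes whose pattern over the 6 libraries lay nearest to each member were found by the root mean square difference of log2 levels after each gene's own mean was taken off, among 9398 genes. The points share the library scaling, so this is a description. Myl4 and Myl7 were each other's nearest gene, at a distance of 1.10. The other 7 members had a nearer neighbour. Myl3 lay 0.04 from Atp5sl and Myl2 lay 0.09 from both Fam59a and Uqcrh, a subunit of respiratory complex III. Myl9 lay 0.13 from Scd2, a fatty acid desaturase, and 0.15 from Bmp7, a growth factor. Mylk3 lay 0.07 from Abcd3, a peroxisomal transporter, and Mylk lay 0.07 from Smarca2, a chromatin remodelling ATPase. Mylk4 lay 0.32 from Cmya5, a muscle structural protein, and 0.41 from Kcnip2, a potassium channel subunit. Myl1 lay 0.33 from Art4, a blood group protein, and 0.36 from Fech, the last enzyme of haem synthesis.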

How the data were processed

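Poly(A) RNA from mouse heart was sequenced in 6 libraries. Build mm9 and the tools TopHat 1.4, BWA 0.5.9, HTSeq 0.5.3, MACS 1.4 and CASAVA 1.8.2 are named, per the submitters' processing notes, and their roles are not given in the sources consulted. The values deposited by the authors are log2 levels, log2(FPKM + 1), with 1 value per gene symbol and no coordinates. The scale was read from the values. Whole reads were recovered for 100.00% of 98043 values above 0 within 0.001 of a read, and 95% exact binomial intervals come from them. The intervals cover counting error only.

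For adult (2 libraries) against E12.5 the test was limma (version 3.58.1, under R 4.3.3) with a trended variance prior, on genes that reached 1 FPKM in any of those 3 libraries. It had 1 residual and 1.535 prior degrees of freedom. Other comparisons have 1 library in a group and use a rule of size, a log2 difference of at least 1 and at least 5 FPKM in the higher group. A gene is called measured where it reached 1 FPKM in at least 1 library compared.

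Named genes were the 9 members, Gata4, up to 4 genes of each other list by size of the adult minus E12.5 difference, any gene of the other light chain list and the phosphatase and control list past the rule of size in any comparison, and the 2 nearest genes by pattern. Any other gene named, such as Sln, Kcnj3, Myl10, Mylk2, Rn45s and the cardiomyocyte markers, falls outside that rule and was chosen after its values were seen. The members and lists were chosen with earlier results of these data known. A further gene of the phosphatase and control kind is not reported here and is in no count. Alternatives were another pseudocount or filter, 3 rescalings, another variance prior, all 6 libraries in 1 fit and leaving out an adult library. Promoter windows came from a RefSeq table of GRCm38.p6, matched by symbol, and only the bases before each start were used.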

Additional observations from a re-analysis of the deposited data

How the results depend on the processing

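The calls of limma for adult against E12.5 kept their direction and side of the threshold for the 7 members called, under every alternative that gave a test. Myl2 turned to 0.0494 under upper-quartile scaling (limma adjusted p = 0.812) and to 0.0759 under median-of-ratios scaling (0.771), and passed as lower at a pseudocount of 5 FPKM (0.0173) and with a variance prior without a trend (0.0341). Without an adult library, which left values with no test, Myl7 ranged from -8.03 to -6.65, Myl4 from -5.63 to -4.99 and Mylk4 from 5.40 to 5.70, and the number higher by the rule of size was 3 or 4. At a pseudocount of 5 FPKM, 0 members were lower in banding than in sham, against 1, because that pseudocount shrinks low levels. In adult minus E12.5, pseudocounts of 0.1 and 5 FPKM gave 7.84 and 3.47 for Mylk4 and 2.96 and 1.47 for Mylk, in place of 5.55 and 2.45. Against adult, 4 members were lower in sham after upper-quartile scaling and after rescaling without the 50 highest genes, in place of 7. Against E12.5, 3 were lower in sham after each rescaling, in place of 5, and 3 higher after upper-quartile scaling, in place of 2. With 1 FPKM added, the log2 ratio of Myl7 to Myl2 was -12.03 in banding and -12.04 in sham, in place of -13.28 and -13.52. Myl7 in banding and sham rests on 6 and 4 reads. No paired analysis was possible because the groups compared share fewer than 2 replicate numbers.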
